A study of Mus musculus with 6 samples.

Results

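Acyl-CoA synthetases and thioesterases set how much fatty acid a cell holds in activated form, and 10 genes of these families were followed here in mouse neural stem cells: Acsl1, Acsl3, Acsl4, Acsl5, Acsl6 and Acsbg1, which encode synthetases, and Acot1, Acot2, Acot6 and Acot7, which encode thioesterases. Their probe sets were found by gene symbol, and the probe set that stands for a gene was chosen by the highest mean over the 6 arrays, whatever the group; that mean is given as a level and is not tested. No probe set of the annotation used here named Acsl1 alone, so 9 of the 10 genes had a value, out of 18193 genes with a probe set on the array. All 9 passed the filter on low values (log2 4 or more on at least 3 of 6 arrays, whatever their group), which 10531 genes did in all. The lowest value of these 9 on any array was 5.35, so that none passed through 1 group alone. The symbols were listed with earlier results of these data known, and the families have other members, which are given further on.

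The samples are 3 biological replicates of Spot14 GFP positive and 3 of Spot14 GFP negative neural stem cells. The groups are set, per the labels, by whether the cells showed a green fluorescent protein (GFP) signal for Spot14, the product of the thyroid hormone responsive gene Thrsp. The labels name no age, strain, culture condition or gate, and the sources used here do not say what else separates the groups. Total RNA was labelled with biotin and read on Affymetrix expression arrays, and the title concerns lipogenesis by fatty acid synthase in adult neural stem cells.

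A fatty acid enters most pathways only once a synthetase has joined it to coenzyme A (CoA) at the expense of ATP. The acyl-CoA can then be built into phospholipids and triglycerides, elongated, or carried into mitochondria and peroxisomes for oxidation, and a thioesterase can undo the step by splitting it into free fatty acid and CoA. In the brain, Acsl6 is known for handling polyunsaturated fatty acids, Acsbg1 for very long-chain fatty acids in astrocytes, and Acot7 as the abundant cytosolic thioesterase of neurons.

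Of the 9 genes, 3 rose in GFP positive cells and none fell: Acsl6 was 3.85-fold higher, Acot6 2.81-fold and Acot1 2.16-fold. The limma adjusted p values over all genes were 0.00919 for Acsl6, 0.0327 for Acot6 and 0.0163 for Acot1. Among all genes tested, 2.35% were higher and 2.11% lower at the same threshold of 0.05. At an unadjusted p under 0.05 limma counted 4 of the 9 as higher and 0 as lower, beside 9.92% and 8.28% of all genes tested. The median difference of the 9 (GFP positive minus GFP negative) was 0.46 on the log2 scale, beside 0.00493 over all genes tested, with 6 positive and 3 negative. The groups did not overlap for 4 genes that were higher and 1 that was lower, where 13.8% and 11.5% of all genes tested were separated in those directions. Since the symbols were listed with results known, these counts describe the 9 genes and support nothing beyond them. The RNA is of bulk samples, in which fewer cells of a type and less RNA per cell cannot be told apart.

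**Figure D1:**
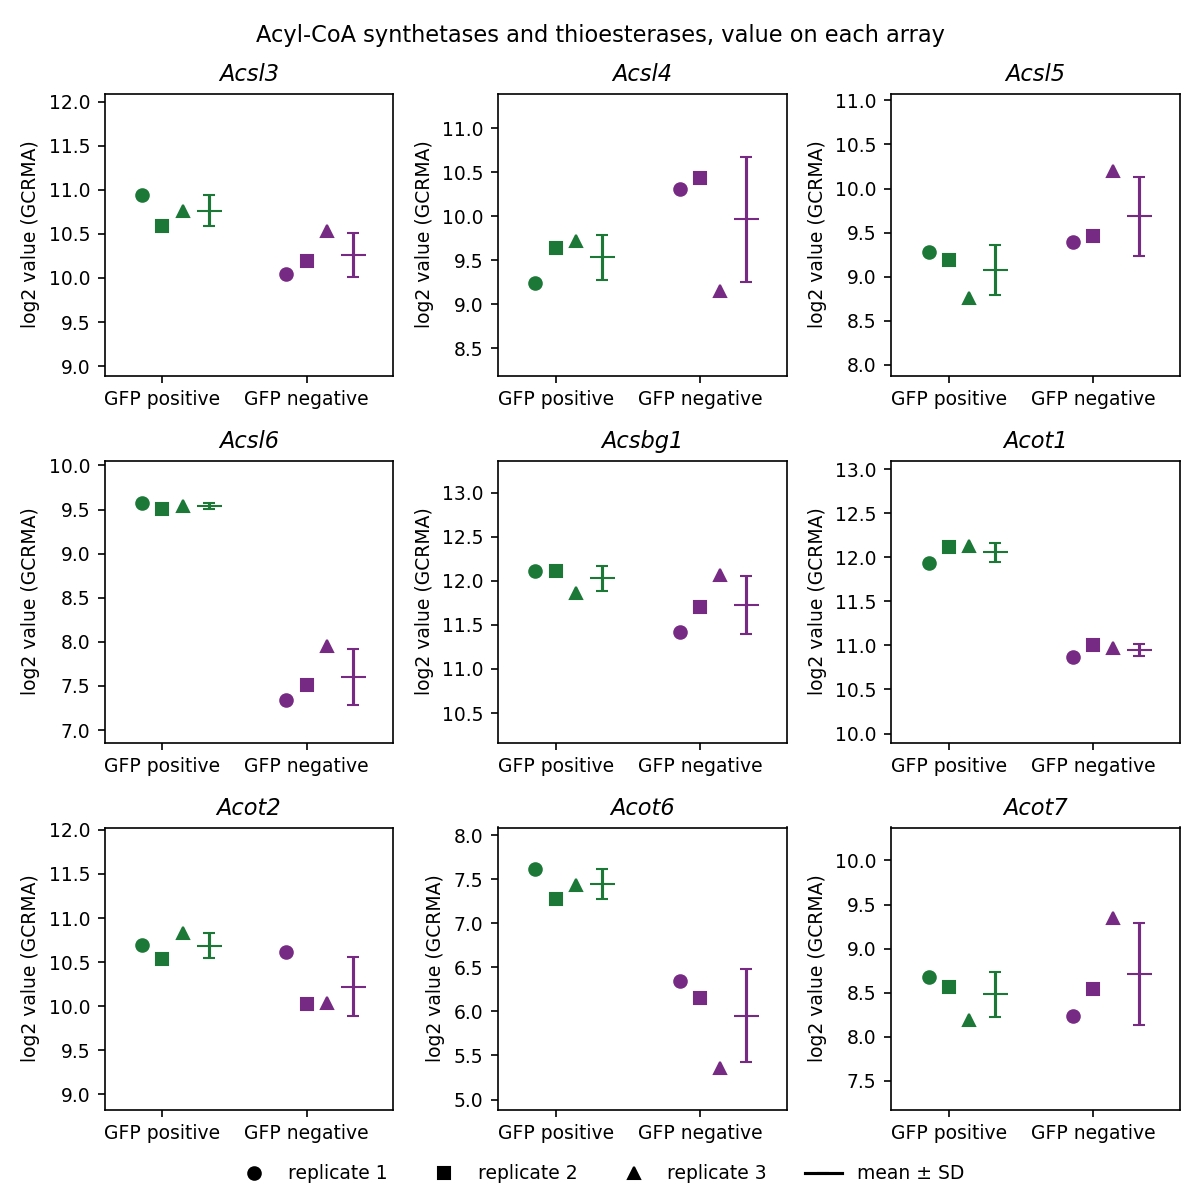
Log2 value of each of the 9 measured genes on every array, with GFP positive arrays at the left and GFP negative arrays at the right of each panel, 1 symbol per replicate and the mean ± SD beside them. All panels span the same log2 range; Acsl6, Acot1 and Acot6 separate by more than 1 log2 unit between the group means.

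The starts of the genes that the results turn on are shown to give their sequence context: Acsl6, with the largest difference of the 9, and the neighbouring genes Acot1 and Acot2, which differ in their calls. RefSeq (GRCm38.p6) gave an entry for 9 of the 10 symbols, Acot6 being without one, and 3 separate starts for Acsl6. Each line holds the 250 bases before a start, on the plus strand, 5′ to 3′. The Acsl6 windows lie at chr11:54303574-54303823, chr11:54303954-54304203 and chr11:54314653-54314902, that of Acot1 at chr12:84009252-84009501 and that of Acot2 at chr12:83987611-83987860. Capitals mark matches on either strand to AGGTCA (the core site of thyroid hormone and other nuclear receptors), CCAAT (the NF-Y box) or GGGCGG (the Sp1 box), which may overlap themselves. The letters TCACNCCAC, a sterol response element, were searched as well and had no match in these windows.
Acsl6, first start: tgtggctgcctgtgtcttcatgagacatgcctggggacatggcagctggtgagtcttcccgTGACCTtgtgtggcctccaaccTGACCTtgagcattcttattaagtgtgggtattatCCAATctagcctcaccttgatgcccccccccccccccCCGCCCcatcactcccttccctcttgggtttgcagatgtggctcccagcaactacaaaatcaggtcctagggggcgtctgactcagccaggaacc
Acsl6, second start: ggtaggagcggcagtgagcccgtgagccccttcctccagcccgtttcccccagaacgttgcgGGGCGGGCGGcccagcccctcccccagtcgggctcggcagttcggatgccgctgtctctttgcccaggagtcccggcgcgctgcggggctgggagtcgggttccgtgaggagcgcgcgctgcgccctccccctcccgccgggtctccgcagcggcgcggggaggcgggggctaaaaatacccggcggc
Acsl6, last start: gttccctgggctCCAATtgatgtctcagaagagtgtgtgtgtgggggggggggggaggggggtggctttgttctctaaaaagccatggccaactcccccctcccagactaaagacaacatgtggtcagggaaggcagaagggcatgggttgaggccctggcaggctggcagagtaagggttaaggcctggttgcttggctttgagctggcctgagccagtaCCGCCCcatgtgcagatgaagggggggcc
Acot1: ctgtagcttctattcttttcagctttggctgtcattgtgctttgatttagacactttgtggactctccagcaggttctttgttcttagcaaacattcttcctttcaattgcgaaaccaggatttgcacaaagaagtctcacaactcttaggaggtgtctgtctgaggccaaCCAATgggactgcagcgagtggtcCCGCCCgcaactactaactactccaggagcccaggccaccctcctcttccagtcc
Acot2: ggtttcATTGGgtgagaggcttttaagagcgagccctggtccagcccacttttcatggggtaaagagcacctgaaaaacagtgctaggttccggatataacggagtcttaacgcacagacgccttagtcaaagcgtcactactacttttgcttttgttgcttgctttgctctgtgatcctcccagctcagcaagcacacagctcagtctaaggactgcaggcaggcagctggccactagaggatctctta

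The first Acsl6 window held 2 AGGTCA matches, 1 CCAAT and 1 GGGCGG, the second held 2 GGGCGG matches that overlap, and the last held 1 CCAAT and 1 GGGCGG. The Acot1 window held 1 CCAAT and 1 GGGCGG, and the Acot2 window 1 CCAAT at its far end. Over 32851 such windows of all genes, 14% held AGGTCA, 33.8% CCAAT, 32.7% GGGCGG and 1.05% TCACNCCAC. Among the 12 windows, which cover 9 of the 10 genes, AGGTCA was found in the first Acsl6 window alone. Acot6 had no window to search. G and C made up 57.2%, 74.8% and 60% of the Acsl6 windows, 48.8% of the Acot1 window and 50.4% of the Acot2 window. A match is a run of letters and says nothing of binding, and which Acsl6 start these cells use was not measured.

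Among the synthetases, Acsl6 stood out by its difference. Its brighter probe set read 9.58, 9.51 and 9.54 on the GFP positive arrays, against 7.34, 7.51 and 7.95 on the GFP negative arrays. Every GFP positive array was above every GFP negative array, and the GFP positive arrays lay within a narrower band. The group means were 9.54 ± 0.03 in GFP positive and 7.60 ± 0.32 in GFP negative cells (SD, n = 3 each), a difference of 1.94 (SE 0.21, 95% limma interval 1.46 to 2.43). In order of size this was number 48 of the differences toward GFP positive cells among 10531 genes, and number 118 by size in either direction. The dimmer Acsl6 probe set read 7.40, 7.39 and 7.49 in GFP positive and 5.16, 4.998 and 4.60 in GFP negative cells. That is 5.68-fold higher, with the groups again apart, and when each of 18742 probe sets above the filter was fitted separately it passed as well (limma adjusted p = 0.0145). Without GFP positive replicate 1 or 3 the call of Acsl6 was lost (limma adjusted p = 0.0637 and 0.0621), at differences of 1.93 and 1.94.

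Acsl3, a synthetase of the endoplasmic reticulum and of lipid droplets, read 10.94, 10.59 and 10.76 in GFP positive cells, against 10.04, 10.20 and 10.53 in GFP negative cells. The groups were separate by a small margin, since GFP negative replicate 3 came close to GFP positive replicate 2. The difference of 0.51 (95% interval 0.03 to 0.98) did not pass (limma adjusted p = 0.241). Another probe set of Acsl3 also had the groups apart, with a difference of 0.27 between the means. It did not pass when each probe set was fitted separately (limma adjusted p = 0.506). On the dimmest one, at 5.83 in GFP positive and 5.53 in GFP negative cells, the groups overlapped.

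Acsl5, found on mitochondria and the endoplasmic reticulum, was the separated gene on the lower side. Its values were 9.28, 9.18 and 8.76 in GFP positive cells and 9.40, 9.46 and 10.20 in GFP negative cells. GFP negative replicate 3 was the highest, and the other GFP negative arrays lay just above the GFP positive ones. The difference was −0.61 (95% interval −1.25 to 0.03) and did not pass (limma adjusted p = 0.298).

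Acsl4, which prefers arachidonic acid and supplies the lipids oxidised in ferroptosis, read 9.25, 9.64 and 9.72 in GFP positive cells. In GFP negative cells it read 10.31, 10.44 and 9.15, so that GFP negative replicate 3 fell below all GFP positive arrays while the others lay above them. The difference of −0.43 (95% interval −1.26 to 0.41) did not pass (limma adjusted p = 0.616). Without GFP negative replicate 3 it was −0.84 and passed (limma adjusted p = 0.0406). The other Acsl4 probe sets were dim, at 3.72 and 3.20 in GFP positive and 4.25 and 3.19 in GFP negative cells.

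Acsbg1, the synthetase named after the fly mutant bubblegum, read 12.11, 12.11 and 11.87 in GFP positive cells, against 11.42, 11.70 and 12.07 in GFP negative cells. The groups overlapped through GFP negative replicate 3, and the difference of 0.30 (95% interval −0.21 to 0.81) did not pass (limma adjusted p = 0.551). Acsl1, the main synthetase of adipose tissue and heart, is not given a value here.

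The thioesterase genes Acot2, Acot1 and Acot6 are neighbours on chromosome 12, in a row of 6 Acot genes that RefSeq orders as Acot2, Acot1, Acot4, Acot3, Acot5 and Acot6. Acot1 is cytosolic and known in liver as a target of the fatty acid receptor PPAR alpha, Acot2 acts in the mitochondrial matrix, and mouse Acot6 is a peroxisomal enzyme for branched-chain acyl-CoA. Acot4, Acot3 and Acot5, which lie between Acot1 and Acot6, stayed near background, their highest values on any array being 2.63, 2.16 and 2.46.

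Acot1 read 11.93, 12.11 and 12.12 in GFP positive cells, against 10.87, 11.01 and 10.97 in GFP negative cells. The arrays of each group lay close together and the groups were far apart. Means were 12.06 ± 0.11 in GFP positive and 10.95 ± 0.07 in GFP negative cells (SD, n = 3 each), and the difference was 1.11 (SE 0.16, 95% interval 0.72 to 1.49). Counted among differences toward GFP positive cells alone it was number 284 of 10531 genes, and by size in either direction number 591. Acot1 and Acot2 are close paralogues, and a probe set annotated to both read 11.66, 11.49 and 11.64 in GFP positive and 10.39, 10.30 and 10.39 in GFP negative cells. It cannot tell the paralogues apart, was kept out of the fit, and was 2.36-fold higher in GFP positive cells. How far the probe sets that name only 1 of them read the other was not tested.

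Acot6 read 7.62, 7.28 and 7.44 in GFP positive cells and 6.35, 6.16 and 5.35 in GFP negative cells. All GFP positive arrays were above all GFP negative arrays, of which replicate 3 was the lowest. The difference was 1.49 (SE 0.28, 95% interval 0.83 to 2.15), with means of 7.45 ± 0.17 in GFP positive and 5.95 ± 0.53 in GFP negative cells (SD, n = 3 each). Among differences toward GFP positive cells it was number 118, and by size in either direction number 292. A further Acot6 probe set lay near background in both groups, at 2.25 and 2.22, so the result rests on 1 probe set.

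Acot2 read 10.70, 10.54 and 10.83 in GFP positive cells, against 10.61, 10.02 and 10.03 in GFP negative cells. The groups overlapped, because GFP negative replicate 1 exceeded GFP positive replicate 2. The difference of 0.46 (95% interval −0.05 to 0.98) did not pass (limma adjusted p = 0.330). Acot1 minus Acot2 within an array was 1.23, 1.58 and 1.30 in GFP positive and 0.26, 0.98 and 0.94 in GFP negative cells, a gap of 0.64 between the group means. Acot6 minus Acot2 differed by 1.03 between the group means. Both pairs were chosen after the values were seen, so these gaps are a description, and whether the neighbours changed by different amounts was not tested.

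Acot7, the neuronal thioesterase, read 8.68, 8.57 and 8.20 in GFP positive cells and 8.24, 8.54 and 9.35 in GFP negative cells. The groups overlapped, and GFP negative replicate 3 was the highest. The difference was −0.23 (95% interval −0.95 to 0.49, limma adjusted p = 0.776), and it was 0.09 without that array.

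**Figure D2:**
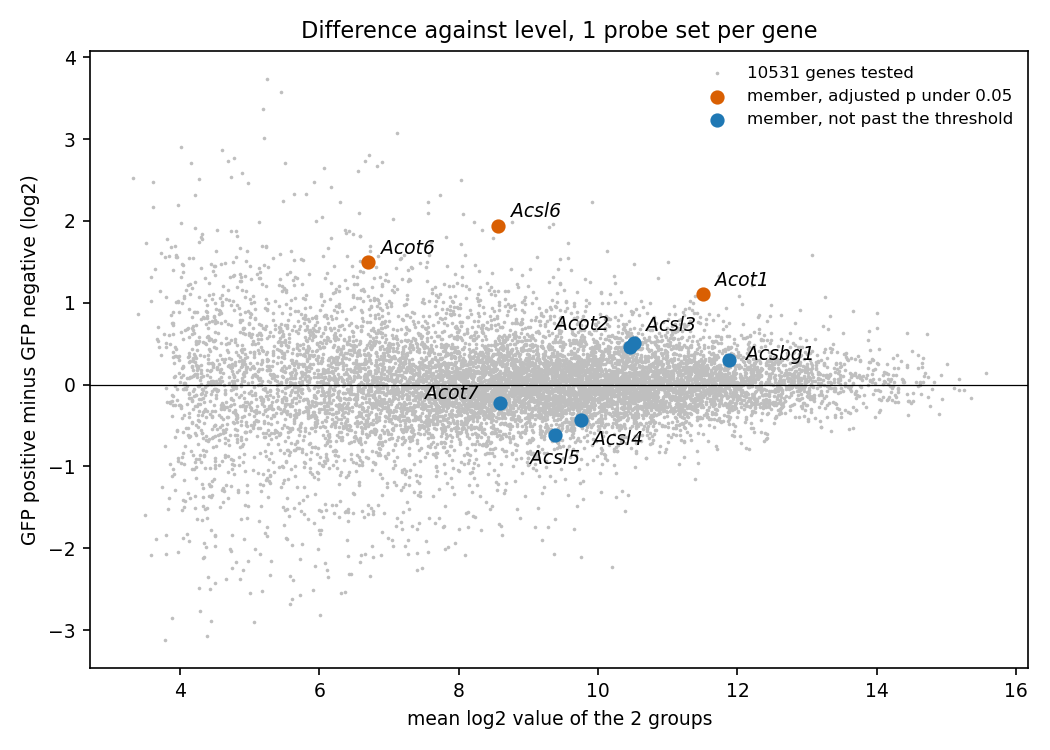
Difference between GFP positive and GFP negative cells (log2, vertical axis) against the mean level of both groups (log2, horizontal axis) for the 10531 genes tested, in grey, with the 9 measured synthetases and thioesterases named. The 3 genes past the threshold, in orange, lie between 1.11 and 1.94, and the other 6, in blue, between −0.61 and 0.51.

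The calls of Acot1 and Acot6 depended on single arrays. Both were lost when any 1 of the GFP positive replicates or GFP negative replicate 2 was left out, with a limma adjusted p of 0.0568 to 0.100 for Acot1 and 0.0865 to 0.143 for Acot6, while the differences stayed at 1.07 to 1.17 for Acot1 and 1.19 to 1.69 for Acot6 over all 6 fits. Of the 9 genes, 0, 1 and 0 passed when GFP positive replicate 1, 2 or 3 was left out, where 2, 106 and 1 of all 10531 genes did. The count was 3, 1 and 4 without GFP negative replicate 1, 2 or 3, the last being Acsl6, Acot1 and Acot6, which were higher, and Acsl4, which was lower. In these fits 354, 106 and 1244 of all genes tested passed, against 470 with all 6 arrays. Where it was 0, without GFP positive replicate 1 or 3, limma counted 3 as higher at an unadjusted p under 0.05. Of all 10531 genes 760 and 735 were higher there.

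**Figure D3:**
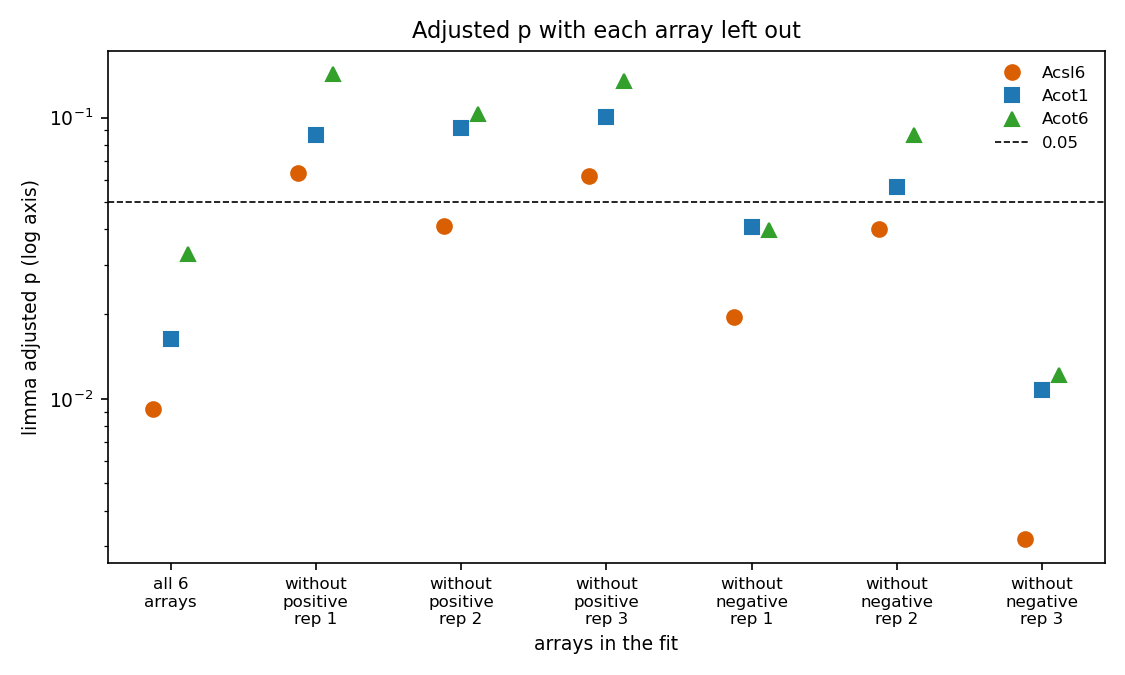
Limma adjusted p (log axis) of Acsl6, Acot1 and Acot6 with all 6 arrays and with each array left out in turn, the dashed line marking 0.05. Acsl6 lies under the line in 4 of the 6 fits with an array left out, and Acot1 and Acot6 each in 2.

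GFP negative replicate 3 was at an end of its group for Acsl6, Acsl3, Acsl4, Acsl5, Acsbg1, Acot6 and Acot7, while it lay between the others for Acot1 and Acot2. In a group of 3 there are always 2 arrays at an end, and GFP negative replicate 1 was at an end for every measured gene but Acsl4. Limma's array weights, estimated over all genes tested, were lowest for GFP negative replicate 3, at 0.152. They were highest for GFP positive replicate 2, at 8.35, beside 0.762 to 1.22 on the rest, so a weighted fit leans on that array. In the Gapdh control, signal from the 3′ end exceeded that from the 5′ end most on GFP negative replicate 2, by 2.33 on the log2 scale beside 1.14 to 1.65 on the other arrays. The mean of this gap in the Gapdh and beta-actin controls was also fitted as a covariate. The differences were then 1.96 for Acsl6, 1.16 for Acot1 and 1.49 for Acot6 (limma adjusted p = 0.0599, 0.0835 and 0.155). None of the 9 measured genes passed. At an unadjusted p under 0.05 limma counted 3 of them as higher, beside 794 of all 10531 genes tested. The array medians lay between 3.55 and 3.66.

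The 16 probe sets that name exactly 1 of the genes included 12 that passed the filter and 3 that lay under log2 4 on every array. Acsl6 and Acsl3 had more than 1 probe set above the filter, and within each gene these ran in the same direction. For Acsl4, Acot2 and Acot6 the second readings lay near background.

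**Figure D4:**
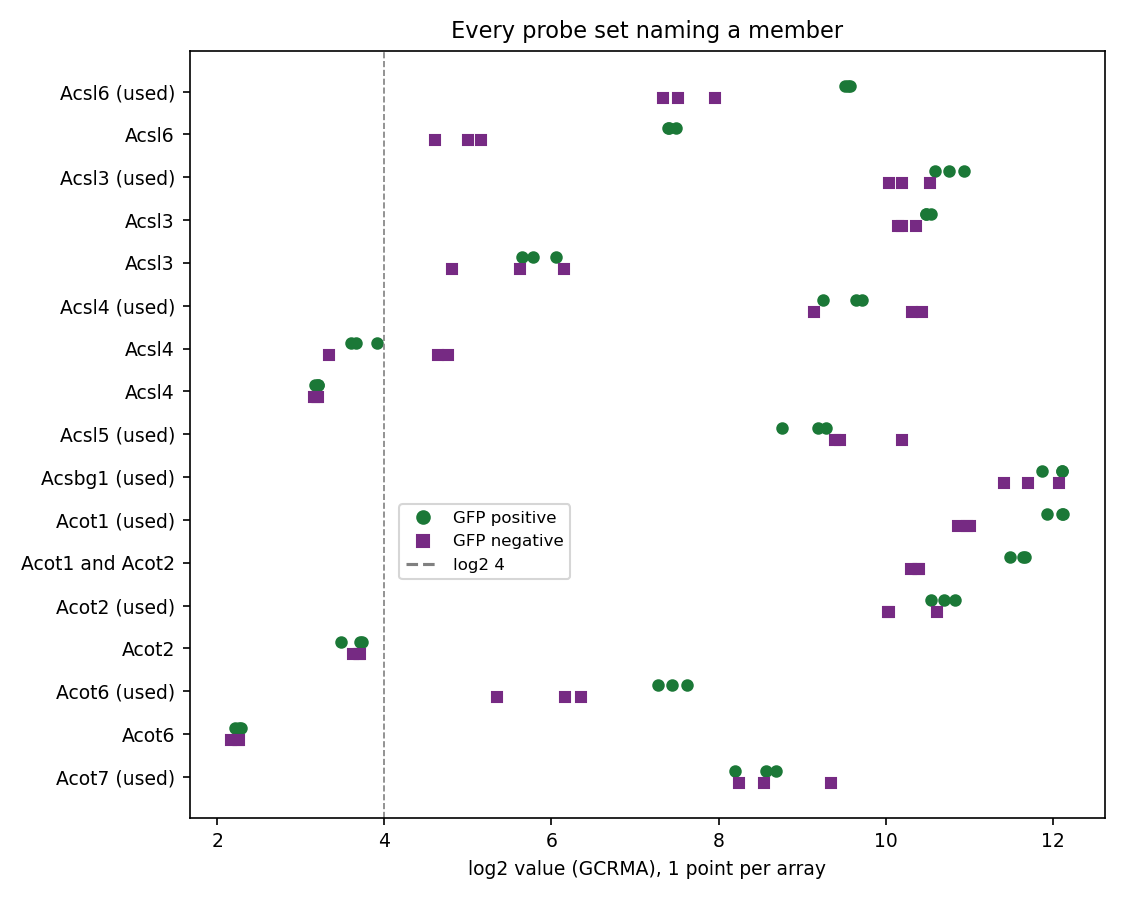
Log2 value of every probe set that names a listed gene, and of the probe set shared by Acot1 and Acot2, with green circles for GFP positive and purple squares for GFP negative arrays, and the dashed line at log2 4. Both Acsl6 probe sets, the Acot1 probe set, the shared one and the brighter Acot6 probe set show the groups apart, with GFP positive to the right.

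Markers of other cell states and types were read on the same arrays. Beside their counts stand the shares of all genes tested, of which 2.35% rose and 2.11% fell. At an unadjusted p under 0.05 limma counted 9.92% as higher and 8.28% as lower. The groups were apart for 13.8% that were higher and 11.5% that were lower. No marker of the astrocyte or dividing-cell lists lay under log2 4 on all arrays. Of 10 astrocyte markers all were positive and 4 rose; their summed unlogged signal was 66347 to 73082 over the GFP positive arrays and 39478 to 43808 over the GFP negative ones. Of 9 measured markers of dividing cells all fell. Their summed signal was 878 to 1383 over the GFP positive arrays and 3141 to 6099 over the GFP negative ones. Among them Plk1 read 3.11, 3.48 and 2.74 in GFP positive and 4.63, 4.88 and 5.45 in GFP negative cells. It passed the filter through the GFP negative arrays alone, so its fall follows in part from the filter. All 4 tested markers of oligodendrocyte progenitors had negative differences and none passed. By limma 2 were lower at an unadjusted p under 0.05, and the groups were apart for 3. The summed signals of this list overlapped, at 10701 to 12203 over the GFP positive arrays and 12144 to 14191 over the GFP negative ones. Olig1 and Olig2, the brightest of the list, made up most of these sums and differed by −0.11 and −0.20. Cspg4 and Pdgfra, the 2 with a limma unadjusted p under 0.05, differed by −1.31 and −0.54. These 4 are named after their values were seen. Sox10 lay under log2 4 on all arrays. Of 4 tested ependymal markers 3 were positive and 1 fell, Dnah11 (−2.09, limma adjusted p = 0.0162). Of 3 tested markers of intermediate progenitors and neuroblasts 1 was positive and 2 negative, and none passed (limma; unadjusted p under 0.05 for 1 that was lower). The part of these markers in the differences of Acsl6, Acot1 and Acot6 was not tested. Of 8 neural stem cell markers 7 were tested, Prom1 lying near background; 4 were positive and 3 negative, with a median of 0.07, and 1 rose, Nr2e1 (0.86, limma adjusted p = 0.0308). The mean log2 level of these 7 was 11.50 to 11.54 over the GFP positive arrays and 11.31 to 11.40 over the GFP negative arrays. Dnah11 and Nr2e1 are named after their values were seen. All 7 microglia markers lay under log2 4 on all arrays, as did 5 of 6 endothelial markers, 4 of 5 mature oligodendrocyte markers and 3 of 7 neuron markers. The remaining members are named after their values were seen. Cnp (oligodendrocyte) averaged 12.91 in GFP positive and 12.54 in GFP negative cells, with the groups apart. The neuron markers Map2 and Syp averaged 12.46 and 5.73 in GFP positive and 12.80 and 5.54 in GFP negative cells. Endothelial Flt1 averaged 4.17 and 4.09. None of these passed (limma). Snap25 and Tubb3 (neuron) were not tested. Snap25 was lower with the groups apart (−1.05), and Tubb3 overlapped. Thrsp itself read 14.32, 14.20 and 14.13 in GFP positive and 13.58, 13.41 and 13.71 in GFP negative cells and did not pass (limma adjusted p = 0.0893).

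The rest of the acyl-CoA machinery was read from 64 further genes in 5 lists, of which 59 had a probe set and 42 were tested. Of these, 2 rose and 0 fell, 30 were positive and 12 negative, and the median difference was 0.26. Among all genes tested 2.35% rose and 2.11% fell, 5321 were positive and 5210 negative, and the median was 0.0049. At an unadjusted p under 0.05 limma counted 11 of the 42 as higher and 0 as lower, beside 9.92% and 8.28% of all genes tested; the same shares stand beside the unadjusted counts of the single lists that follow. The largest difference among the 42 tested was 1.27, below those of Acsl6 and Acot6. Slc27a3, a synthetase that missed the filter and was not tested, had a larger difference, of −1.95. It averaged 2.66 in GFP positive and 4.61 in GFP negative cells, and the groups overlapped. Slc27a3 is named after its values were seen.

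Acsf2, a mitochondrial synthetase of medium-chain fatty acids, was the riser among 9 tested genes of other synthetases. It read 9.21, 9.07 and 8.96 in GFP positive cells and 8.27, 8.02 and 7.91 in GFP negative cells. The difference was 1.01 (SE 0.18, limma adjusted p = 0.0301), the groups being apart. The median of that list was 0.28.

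None of 7 tested genes among the other thioesterases passed (limma; 2 higher at an unadjusted p under 0.05), with a median of 0.28. The brightest were Acot13, a small cytosolic thioesterase (12.21 ± 0.24 in GFP positive and 11.93 ± 0.46 in GFP negative cells, SD, n = 3 each), and Ppt1, which removes palmitate from proteins in lysosomes (9.95 and 9.44).

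Of 9 tested binding proteins of acyl-CoA and fatty acids none passed (limma; 2 higher at an unadjusted p under 0.05). Dbi, the acyl-CoA binding protein, averaged 14.77 in GFP positive and 14.41 in GFP negative cells, and Fabp7, the brain fatty acid binding protein of radial glia, averaged 13.27 and 13.29. Of 7 tested genes of the carnitine shuttle, which carries acyl groups into mitochondria, none passed (limma; 3 higher at an unadjusted p under 0.05), and the median was 0.51. Slc25a20, the carnitine carrier, differed by 0.54 (limma adjusted p = 0.183) and Cpt1a, the gate of mitochondrial fatty acid oxidation, by 0.24 (0.721).

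Among 10 genes that make or break down CoA itself, Nudt7, a peroxisomal hydrolase that cleaves CoA, rose. It read 8.20, 8.14 and 8.21 in GFP positive cells, against 6.90, 6.94 and 6.90 in GFP negative cells. All 3 GFP positive arrays were above all GFP negative arrays by more than 1 log2 unit, and the difference was 1.27, or 2.41-fold (SE 0.16, limma adjusted p = 0.0116). The list had a median of 0.10, with 6 positive and 4 negative. The calls of Acsf2 and Nudt7 were both lost when a GFP positive replicate, whichever it was, was left out. The differences were then 0.94 to 1.07 for Acsf2 and 1.26 to 1.29 for Nudt7. Without GFP positive replicate 1, 2 or 3, 0 of the 42 genes passed, beside 2, 106 and 1 of all 10531 genes. At an unadjusted p under 0.05 limma then counted 9, 8 and 6 as higher, beside 760, 664 and 735 of all genes. Leaving out GFP negative replicate 2 gave 1 gene past the threshold, Nudt7, where 106 of all genes passed. Leaving out GFP negative replicate 3 gave 6, where 1244 did.

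**Figure D5:**
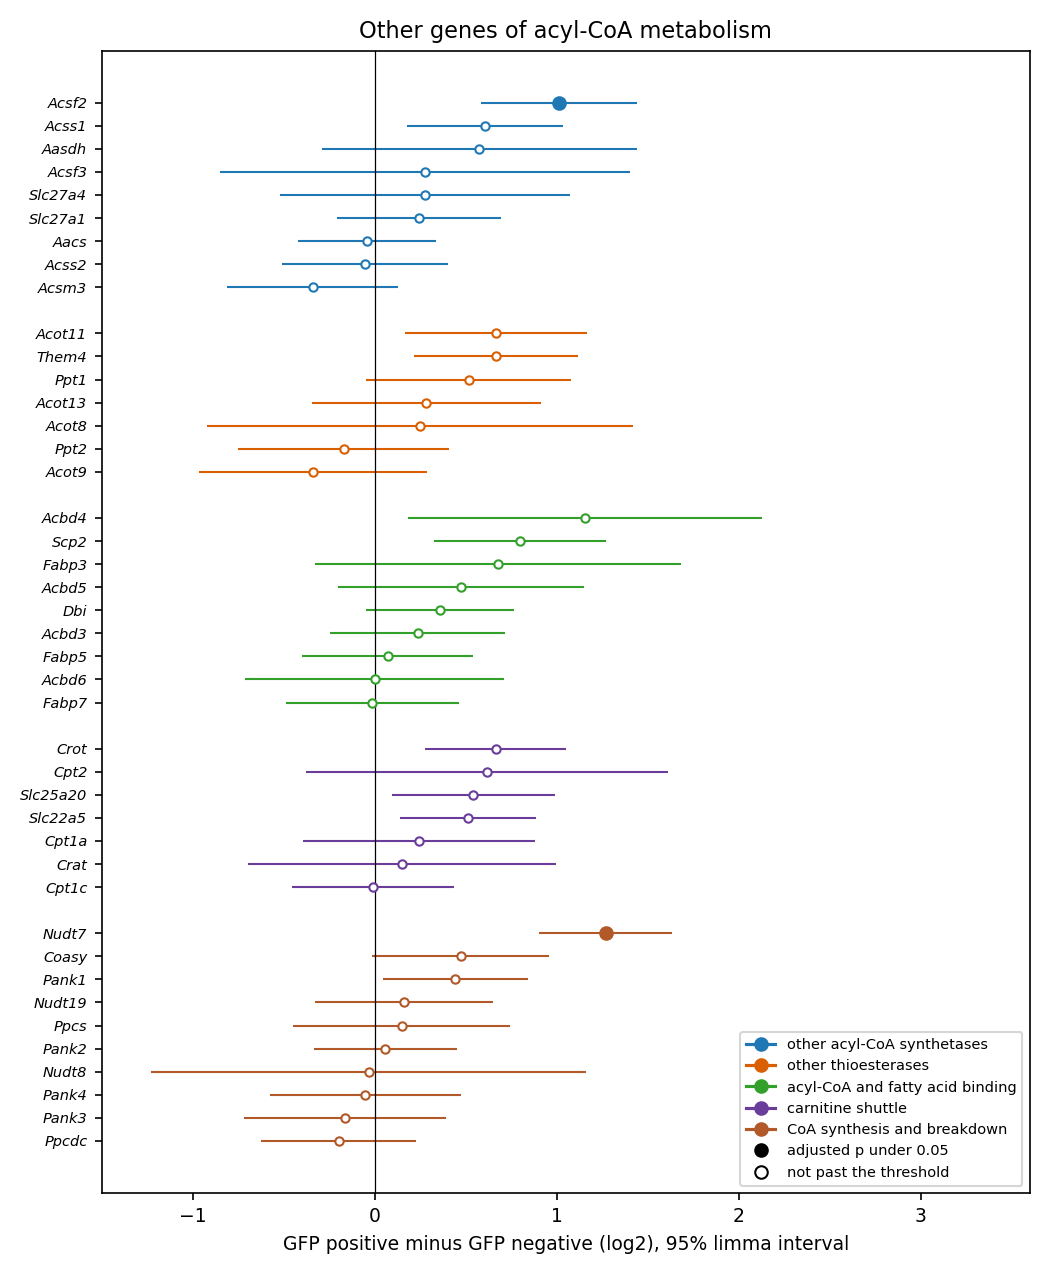
Difference between GFP positive and GFP negative cells (log2, horizontal axis) with its 95% limma interval for the 42 tested genes of the 5 other lists, sorted within each list. Filled points mark Acsf2 and Nudt7, the 2 genes with an adjusted p under 0.05, and most of the open points lie right of 0.

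The genes whose values over the 6 arrays were most like those of the 3 risers were found by Pearson's r across arrays, as a description. For Acsl6 they were Aldh1a1, a retinaldehyde dehydrogenase (r = 0.999), Fhit (0.998) and Gstt3, a glutathione transferase (0.997). For Acot1 they were Dpy19l3 (0.998), Tcaim (0.998) and Kctd21 (0.997). For Acot6 they were Aldh5a1, the succinate semialdehyde dehydrogenase of GABA breakdown (0.998), Nebl (0.997) and Rasa2 (0.996). With 6 arrays in 2 separate groups such an r follows the group difference. Clone and placeholder names left out, 219, 191 and 120 tested genes had an r above 0.95 with Acsl6, Acot1 and Acot6.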

How the data were processed

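Mouse neural stem cells, 3 samples positive and 3 negative for Spot14 GFP, were read on 1 array per sample. The authors deposited log2 values from GCRMA (named in the submitters' processing notes, with no version). This method removes a background modelled on probe sequence, equalises the distributions of the arrays and summarises each probe set, so that folds of dim genes depend on the background estimate and a shift of all genes would not be seen. No further normalization was applied.

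Of 45101 probe sets 34945 named exactly 1 gene in the platform annotation, and each of 18193 genes was read from its brightest probe set. Genes with log2 4 or more on at least 3 of 6 arrays (10531) were fitted with limma 3.58.1 (R 4.3.3) by lmFit and eBayes on the group term alone; p-values were adjusted by Benjamini-Hochberg over these genes, with a threshold of 0.05; differences are GFP positive minus GFP negative. The number of arrays limits the precision.

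The members and lists were chosen with earlier results of these data known. Of other genes, those past the threshold were named, or the 2 brightest of a list without any, and the 3 most alike in pattern to each riser, clone names left out; further names are said to be chosen after their values were seen. Promoter windows come from RefSeq for GRCm38.p6. Alternatives were other filters, normalizations, probe set choices, variance models, array weights, a replicate block, a 3′ to 5′ covariate, leaving out each array and a 2-fold minimum.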

Additional observations from a re-analysis of the deposited data

How the results depend on the processing

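The differences of Acsl6, Acot1 and Acot6 kept their sign in all 17 alternative fits that gave one. They ran over 1.81 to 2.23 for Acsl6, 1.07 to 1.18 for Acot1 and 1.16 to 1.69 for Acot6. Another filter, another variance model, separate fits of all probe sets and the replicate block leave a difference unchanged by construction. Leaving out probe sets ending in _x_at, _s_at or _a_at also kept the same probe set for these genes. In such fits the sign was fixed in advance. Acsl6, Acot1 and Acot6 passed in 13, 11 and 9 of the 17 fits. Acot6 was lost without a filter (limma adjusted p = 0.0897) and with all probe sets (0.0504). Acot7 turned positive with array weights (0.046) and, over the arrays left out, ran from −0.47 to 0.090 (positive without GFP negative replicate 3), never past the threshold. Of the 9 genes, 0 passed with the replicate block, with the 3′ to 5′ covariate and with a 2-fold minimum. With these settings limma counted 3, 3 and 1 as higher at an unadjusted p under 0.05. Of all 10531 genes tested, 739, 794 and 107 were higher there. With an array left out 0 to 4 of the 9 genes passed. Among the other acyl-CoA genes, where 2 passed, the count was 4 without a filter and 1 with the mean of probe sets. It was also 1 without probe sets ending in _x_at, _s_at or _a_at. The count was 4 with trend and robust settings, 13 with array weights, and 0 to 6 with an array left out. With the replicate block, the covariate or a 2-fold minimum it was 0. At an unadjusted p under 0.05 limma then counted 8, 9 and 0 as higher, beside the same 739, 794 and 107 of all genes tested. Over all genes tested, where 470 passed, it was 294 without a filter, 306 with all probe sets, 1654 with array weights, 27 with the replicate block, 9 with the covariate, 1 with a 2-fold minimum, and 1 to 1244 with an array left out. The labels do not say whether replicate numbers pair the arrays, and they were not treated as pairs. Same-numbered arrays had correlations of −0.25, 0.05 and −0.50 in their deviations from the group means, and unlike-numbered ones −0.38 to 0.44. Deviations within a group of 3 sum to 0, so these values cannot decide whether same-numbered arrays shared a preparation. Under the block the differences of the 9 genes were unchanged, which a block balanced over the groups ensures by construction. Leaving out an array, the block and the covariate each reduce the residual degrees of freedom; otherwise the cause of the lost calls was not tested.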

Other observations

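Besides Acsf2 and Nudt7, 9 of the 42 tested genes of the other acyl-CoA lists were higher in GFP positive cells at an unadjusted p under 0.05 without passing the adjustment, where 9.92% of all genes tested were higher at that unadjusted threshold, called or not; they are named after their values were seen. Acot11, a thioesterase known from brown fat, read 8.94, 9.05 and 9.20 in GFP positive cells, against 8.10, 8.74 and 8.36 in GFP negative cells (difference 0.67, limma adjusted p = 0.145). Them4, another thioesterase, differed by 0.66 and Acss1, the mitochondrial acetyl-CoA synthetase, by 0.61. Crot and Scp2, both peroxisomal, differed by 0.66 and 0.80 (limma adjusted p = 0.0739 and 0.0766). Acbd4 differed by 1.16, Slc25a20 by 0.54, the carnitine transporter Slc22a5 by 0.51 and the pantothenate kinase Pank1 by 0.44. For all 9 the groups did not overlap, and each remains a value that did not pass the test. Over all genes tested 13.8% were apart in that direction. These 9 were picked by a low p, which favours separate groups, so their separation is no further result.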
